A study of Arabidopsis thaliana with 12 samples.

Results

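Wild-type Arabidopsis thaliana plants of the ecotype Columbia were exposed to a high or a low dose of formaldehyde gas, and the 2 doses were compared in rosette leaves, using 6 of the 12 ATH1 arrays of the study, a short-oligonucleotide expression array with 22810 probe sets. The low group was 3 plants in air with 1 to 2 ppm formaldehyde and the high group 3 plants in air with 14 to 16 ppm. The other groups of 3 plants were ventilated with clean air (under 0.04 ppm) in the same kind of chamber or stayed outside it (under 0.08 ppm). The labels name no transgene or mutation. Every plant was 7 weeks old, had spent 72 h under constant light (24 °C), and was treated for 150 min before about 100 mg of leaf was frozen. The members were chosen by the dose in the sample titles, and no measured value was used to choose them. The 3 plants of a dose shared a 10 L chamber, so dose and chamber run cannot be told apart: the p-values rest on how plants varied within a single run. The samples are whole leaf, in which fewer cells of a type and less RNA per cell cannot be told apart.

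Formaldehyde is a reactive aldehyde that adds to the amino and thiol groups of proteins and nucleic acids and can cross-link them. In leaves it binds glutathione and is oxidised by way of formate to carbon dioxide, and it also reacts with tetrahydrofolate, the carrier of single-carbon units that photorespiration uses. Plant cells with damaged proteins make heat shock proteins, which hold or refold unfolded chains, and cells that meet reactive chemicals make enzymes that attach glutathione or sugars to them and transporters that move the products.

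Expression is given as a log2 value per probe set, and differences are given as high minus low on that scale with the fit's standard error (SE). A rise or fall is between the doses, and by itself does not say which dose departed from clean air. The array's lowest value is 2.11, and a probe set was taken as read above background when its value was above 4. Medians of the 6 arrays lay between 5.72 and 5.79. Across probe sets the arrays had r between 0.988 and 0.994 within the low group, between 0.989 and 0.996 within the high group, and between 0.943 and 0.961 across the 2 doses. The 3′ minus 5′ signal of the control transcripts, a measure of how complete the labelled RNA was, was 1.49, 1.50 and 1.42 in the low plants and 1.83, 1.55 and 1.41 in the high plants, against a mean of 1.21 in clean air. High plant 1 had the largest such value, high plant 2 also lay above every low plant, and high plant 3 lay just below them. The added control transcript bioC read 8.37 ± 0.25 (SD, n = 3) on the low arrays and 6.70 ± 0.31 (SD, n = 3) on the high arrays. What part these differences had in the results was not tested.

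The 2 doses gave very different leaf transcriptomes. At the high dose 6 of 7 tested small heat shock genes, 8 of 9 large chaperones and their helpers and 6 of 6 genes of the mitochondrial stress list were higher, and all 3 tested genes each of the iron deficiency and Calvin cycle lists were lower. Some of the former were above background on the high arrays alone. In all, 6910 of 13874 probe sets (49.8%) passed an adjusted p of 0.05 in limma, 2923 (21.1%) higher at the high dose and 3987 (28.7%) lower. All counts of list members are to be read against these shares. The lists were written with earlier results of these data known, so a count that departs from the shares is a description and not a test. Among the calls 42.3% were rises, but large changes were mostly rises. A 2-fold or larger change was called for 1716 rises (12.4%) and 1867 falls (13.5%). A log2 difference of at least 2 was found for 757 rises and 339 falls, and one of at least 4 for 207 rises and 12 falls. The 3 plants of 1 dose all lay above the 3 of the other in 8180 probe sets (59%), with the high dose above in 3498 (25.2%) and the low dose above in 4682 (33.7%). Doses that did not overlap were thus common, and where given below they describe a gene without setting it apart. The median difference over all probe sets tested was -0.11, with quartiles at -0.65 and 0.46. The median SD between plants was 0.23 in the low group and 0.21 in the high group. For scale, 7337 probe sets (52.9%) were called between the high dose and clean air and 3224 (23.2%) between the low dose and clean air.

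**Figure D1:**
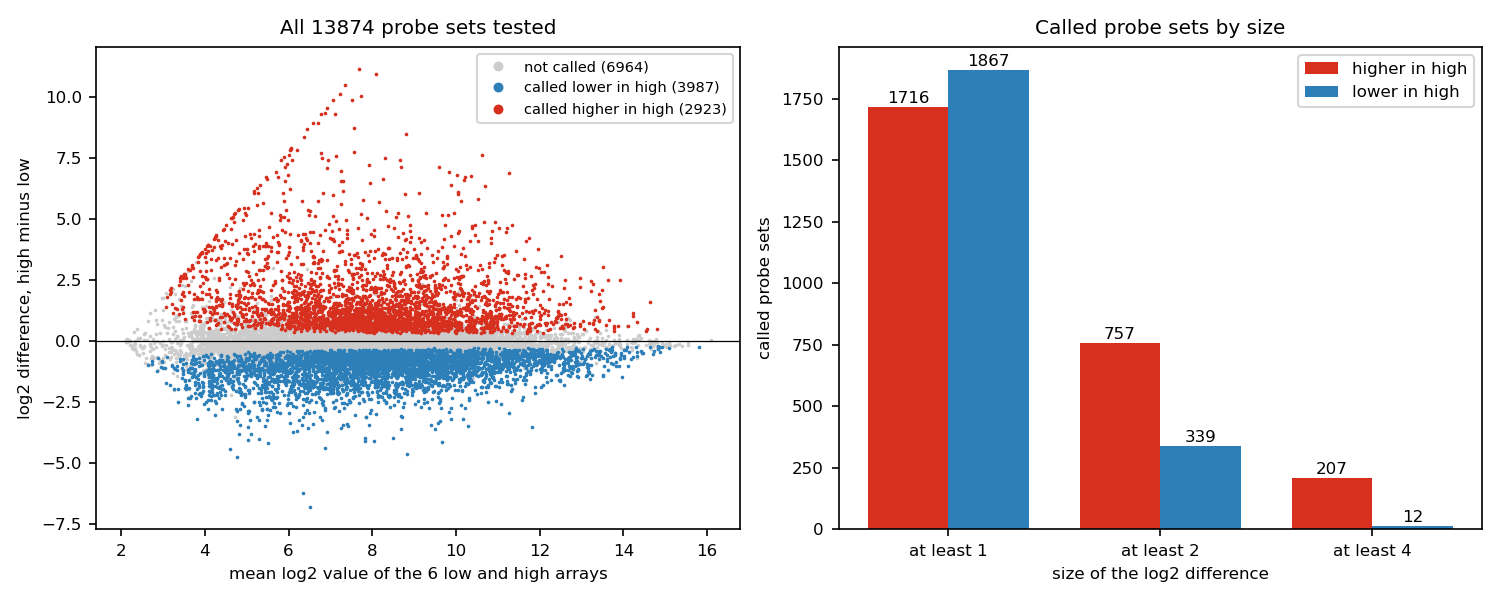
Left, the log2 difference between high and low dose (vertical axis) against the mean log2 value of the 6 low and high arrays (horizontal axis) for the 13874 probe sets tested, coloured by the call at an adjusted p of 0.05. Right, the number of called probe sets whose log2 difference is at least 1, 2 or 4: falls are slightly more numerous at 1 (1867 against 1716), and rises at 2 (757 against 339) and 4 (207 against 12).

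Of the rises, 245 had no low array above 4, and of the falls, 205 had no high array above 4. Where all 3 arrays of a dose lie at or below 4, only a bound can be given, and the fold, computed against 4 for that dose, is preceded by "at least". A probe set that passed the filter through the high arrays alone had to differ. Counts of rises among tested members of such lists, and the adjusted p of such a gene, are therefore descriptions and support nothing. Among these genes are AT5G51440, AT2G29500, AT1G53540, AT1G71000, Hop3, UGT73C1, UGT73B4, AT2G04050 and GSTU25. In UGT73C1, AT1G71000 and GSTU25 all other groups had an SD of 0, so only the high plants showed any spread. Gene names come from the platform's annotation, which gives a single gene for 7480 of the tested probe sets (53.9%). Of those, 3621 (48.4%) were called, 1626 (21.7%) as rises and 1995 (26.7%) as falls. Among the 100 largest rises 47 had a named gene, and among the 100 largest falls 42, so many of the most changed probe sets are unnamed here.

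The 12 largest rises of named genes lay between 6.76 and 10.94, and by the rule that picked them every high plant lay above every low plant. The largest was AT5G51440, a mitochondrial small heat shock protein. It read 2.76, 2.91 and 2.16 in the low plants and 13.48, 13.63 and 13.54 in the high plants, against a mean of 2.18 in clean air. The 3 low plants were not above background and the 3 high plants lay close together near the top of the array's range, a rise of at least 749-fold (adjusted p = 3.94e-11 in limma). AT2G29500 and AT1G53540, small heat shock proteins of the cytosol, behaved alike. AT2G29500 read 2.55, 2.65 and 2.53 at the low dose and 11.66, 12.67 and 12.98 at the high dose, at least 347-fold higher (adjusted p = 4.95e-09). AT1G53540 sat at the floor of 2.11 in all low plants and read 9.74, 12.07 and 12.44 in the high plants, at least 171-fold higher, and at least 306-fold without high plant 1 (adjusted p = 2.69e-07). High plant 1 had the lowest value of its group for both genes.

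Genes outside the heat shock families were also among the largest rises. AT2G41730, a small protein whose gene is known to respond to mitochondrial dysfunction, read 6.72, 6.71 and 7.01 at the low dose and 14.50, 14.47 and 14.28 at the high dose, a difference of 7.60 ± 0.31 (adjusted p = 1.91e-08). Its probe set is of a type that may bind related transcripts, and it already stood above clean air (mean 5.45) at the low dose by 1.37 (adjusted p = 0.0104). AT2G21640, known as UPOX for its rise under oxidative stress, read 4.23, 4.61 and 4.85 against 12.22, 11.70 and 12.22, a difference of 7.48 ± 0.24 (adjusted p = 2.06e-09). AT5G14730, which has no symbol in the annotation, read 5.17, 4.59 and 5.62 against 12.24, 12.25 and 12.28, a difference of 7.12 ± 0.39 (adjusted p = 2.21e-07), and averaged 3.25 in clean air. AT4G01870 rose by 6.76 ± 0.28 from 6.97 ± 0.13 to 13.73 ± 0.18 (SD, n = 3 at each dose), with the outside plants at a mean of 9.21. The 3 high plants of each of these genes lay close together and far above the low plants.

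The 12 largest falls lay between -6.82 and -3.11, smaller than the rises and with more spread among the low plants. AT4G24780, a pectate lyase-like protein of pectin breakdown, was among the most even: it read 10.98, 11.26 and 11.64 at the low dose and 7.67, 7.64 and 7.74 at the high dose, a difference of -3.61 ± 0.17 (adjusted p = 5.76e-08). AT1G49470, without a symbol, read 8.90, 9.18 and 9.00 against 5.39, 5.63 and 5.36, a difference of -3.57 ± 0.16 (adjusted p = 5.72e-08). The doses were far apart in both, and clean air (means of 11.05 and 9.25) lay with the low dose. HAT2, a homeodomain-leucine zipper transcription factor of the auxin and shade responses, read 10.36, 10.33 and 10.12 against 8.04, 6.99 and 6.37, a difference of -3.13 ± 0.50 (adjusted p = 0.000462). AT5G62280 fell by 3.61 ± 0.61 on the log2 scale (adjusted p = 0.000647) and the F-box protein AT2G32560 by 3.43 ± 0.28 (adjusted p = 5.32e-06). AT2G32560 has a further tested probe set, whose values are not given here.

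In the other large falls individual plants stood apart. AT2G15020 read 6.93, 7.63 and 9.59 in the low plants and 2.69, 5.19 and 5.21 in the high plants, and AT1G49200 read 8.14, 8.23 and 9.99 against 7.01, 4.07 and 4.09. By the rule that picked them the doses did not overlap in either gene. Low plant 3 was high in both, and high plant 1 was low in the first and high in the second. Over the 12 largest falls low plant 3 was the highest of its group in 8 and low plant 1 the lowest in 9. Over all 3987 falls low plant 1 was the lowest of its group in 50.6% and low plant 3 the highest in 43.7%. Over all 2923 rises low plant 1 was the highest of its group, or tied for it, in 55.4%, and high plant 1 the lowest of its own in 44.0%. Plants of equal value, as at the array's floor, were counted for the first of them, so the shares of plant 1 include ties. For AT3G16670 (-3.13 ± 0.89, adjusted p = 0.0133) the call was lost without low plant 2, which read 10.89 where the others read 8.17 and 9.22 (-2.40, adjusted p = 0.0597).

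**Figure D2:**
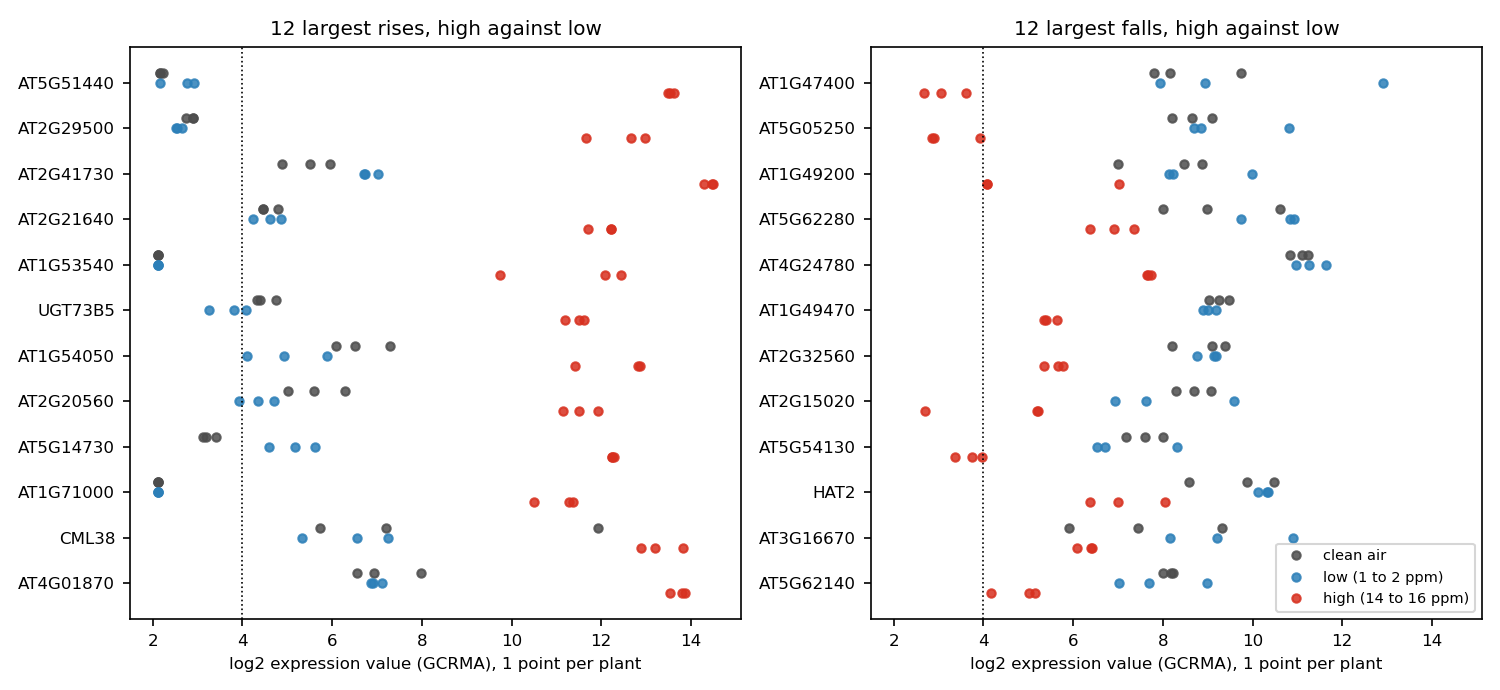
Log2 expression values (horizontal axes, 1 point per plant) of the named genes with the 12 largest rises (left) and the 12 largest falls (right) at the high against the low dose, with clean air for comparison and a dotted line at 4. By the rule that picked the genes the 3 high plants (red) do not overlap the 3 low plants (blue). Most high plants of the left panel lie above 10, and low plants of the right panel spread more widely.

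Chaperones rose at the high dose over a wide range of sizes. Of 17 small heat shock genes, 9 had a named probe set and 7 were tested: 6 rose, none fell and 1 did not pass, with a median difference of 7.39 against -0.11 over all probe sets tested and 21.1% of all called higher. Of these, 3 were above 4 on no low array. AT1G54050, a class III small heat shock protein, rose by 7.39 ± 0.50 (adjusted p = 1.09e-06), AT5G37670 by 4.57 ± 0.46 (adjusted p = 2.22e-05) and AT2G19310 by 2.21 ± 0.22 (adjusted p = 2.1e-05). AT2G19310 was already at 8.66, 8.13 and 8.42 in the low plants, below its clean air values of 9.21, 9.86 and 9.75. ATHSP22.0 and AT1G52560 were not tested, with no value above 4 on the low or high arrays.

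AT4G21870, a small heat shock protein, was the member that did not pass. It read 12.04, 11.49 and 11.93 in the low plants and 12.89, 11.96 and 11.72 in the high plants, which overlapped, with a difference of 0.37 (95% confidence interval -0.95 to 1.70, adjusted p = 0.635). In clean air it read 9.05, 8.50 and 6.16, so the low dose already stood 3.92 above clean air (adjusted p = 0.00257).

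Large chaperones and their helpers followed. Of 44 genes in that list 10 had a named probe set and 9 were tested. Of these 8 (88.9%) rose, against 21.1% of all probe sets, none fell and 1 did not pass (median 5.17). AT1G71000 and AT2G20560, DnaJ-domain co-chaperones that hand substrates to HSP70, rose strongly. AT1G71000 read 2.11 in every low plant and 11.36, 10.51 and 11.28 in the high plants, at least 133-fold higher (adjusted p = 2.36e-10). AT2G20560 read 4.71, 4.36 and 3.91 against 11.15, 11.51 and 11.92, a difference of 7.20 ± 0.40 (adjusted p = 2.3e-07). AT5G48570, an FK506-binding peptidyl-prolyl isomerase known from heat stress, read 7.88, 6.38 and 6.47 against 13.07, 13.61 and 13.78, a difference of 6.58 ± 0.36 (adjusted p = 2.27e-07). In AT5G48570 no high plant overlapped a low plant, as in 59% of all probe sets tested. AT1G71000 and AT2G20560 were picked by a rule that required this.

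The HSP70 and HSP90 helpers differed among themselves. Fes1A, an exchange factor of cytosolic HSP70, rose by 5.17 ± 0.24 (adjusted p = 5.75e-08). The HSP70 genes Hsp70-2 and AT3G09440 rose by 3.39 ± 0.32 (adjusted p = 1.39e-05) and 2.47 ± 0.24 (adjusted p = 1.89e-05). The 3 HOP genes code for related adaptors between HSP70 and HSP90. Hop3 read 3.45, 2.75 and 2.62 in the low plants and 10.00, 10.86 and 11.03 in the high plants, at least 99.0-fold higher (adjusted p = 9.7e-09). Hop2 rose by 1.87 ± 0.17 (adjusted p = 1.15e-05), and Hop1 differed by -0.09 (95% confidence interval -0.46 to 0.27, adjusted p = 0.663). HSA32, a heat-induced protein of the memory of heat, was not tested: it read 2.22, 2.94 and 2.22 at the low dose and 2.69, 5.15 and 5.14 at the high dose. The members of this and later lists that did not pass and are named here were picked after their values were seen.

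Of 7 probe sets tested for the unfolded protein response of the endoplasmic reticulum 5 (71.4%) rose, none fell and 2 did not pass (median 1.04). Rises made up 21.1% over all probe sets. BZIP60, a transcription factor that is spliced when unfolded proteins gather in the endoplasmic reticulum, read 9.51, 8.95 and 9.74 in the low plants and 12.85, 12.96 and 12.93 in the high plants, a difference of 3.52 ± 0.27 (adjusted p = 3.63e-06). BZIP28, a membrane-tethered factor of the same response, read 8.12, 7.88 and 7.71 against 9.49, 9.70 and 9.95, a difference of 1.81 ± 0.19 (adjusted p = 2.97e-05). The doses did not overlap in either gene. DER1 and DER2.2, derlins that help export misfolded proteins, rose by 1.28 ± 0.14 (adjusted p = 4.44e-05) and 1.04 ± 0.22 (adjusted p = 0.00235). A further DER1 probe set read 2.11 on all low and high arrays and was not tested. DER2.2 averaged 7.58 at the low dose, 8.62 at the high dose and 8.17 in clean air, and the high dose was not called against clean air (adjusted p = 0.0996). The lumenal chaperones did not pass: ATERDJ3B differed by 0.12 (adjusted p = 0.699) and the calreticulin CRT1b by -0.32 (adjusted p = 0.329). Of 4 proteasome subunits none rose, 1 (25%) fell, near the 28.7% over all probe sets, and 3 did not pass. The fall was in AT2G32730, a subunit of the regulatory particle (-0.58 ± 0.15, adjusted p = 0.00745), and AT5G23540, of the same particle, differed by 0.54 (adjusted p = 0.0589). AT5G23540 was called higher with the 6 arrays alone, with the replicate block, without outside plant 1 or 3 or clean air plant 1, and with array weights, under which 2 falls were called.

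Most tested detoxification genes rose. Of 46 genes 14 were named and 10 tested: 7 (70%) rose, 2 (20%) fell and 1 did not pass. Over all probe sets 21.1% rose and 28.7% fell. The list median was 6.41, or 4.61 when values under 4 were raised to 4. Of the 10 tested, 4 were above 4 on no low array. UGT73 glycosyltransferases, which attach glucose to foreign compounds and secondary metabolites, made up 4 of the rises. UGT73B5 read 3.24, 4.07 and 3.80 in the low plants and 11.18, 11.50 and 11.61 in the high plants, a difference of 7.72 ± 0.25 (adjusted p = 2.24e-09). UGT73C1 sat at 2.11 in all low plants and read 9.51, 9.63 and 9.83 in the high plants, at least 50.4-fold higher (adjusted p = 1.06e-10). The low plants of UGT73C1 were not above background, and those of UGT73B5 were near 4. UGT73B4 rose at least 21.0-fold (adjusted p = 1.43e-07), and UGT73B1 read 5.73, 6.18 and 5.44 against 9.00, 8.73 and 9.07, a difference of 3.15 ± 0.36 (adjusted p = 4.91e-05). UGT73B4 and UGT73B5 are neighbouring relatives, and how far their probe sets bind each other's transcript was not tested.

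Of the 21 other glycosyltransferases tested, 5 (23.8%) rose and 8 (38.1%) fell, where 21.1% and 28.7% of all probe sets did. Their differences ran from -2.30 to 2.99, and those of the 4 UGT73 genes from 3.15 to 7.72. This split was not among the written lists, and UGT73C1 and UGT73B4 passed the filter through the high arrays alone, so it is a description only. UGT73C2, UGT73D1 and UGT73C7 were not tested. In the high plants UGT73C2 read 2.11 throughout, UGT73D1 read 2.11, 5.08 and 2.13, and UGT73C7 read 2.42, 5.40 and 3.83. UGT71B6, which glucosylates abscisic acid, rose by 2.99 ± 0.36 (adjusted p = 7.64e-05) and UGT87A2 by 2.27 ± 0.25 (adjusted p = 3.71e-05). UGT78D1, a flavonol rhamnosyltransferase, read 8.99, 9.96 and 10.04 at the low dose and 6.91, 7.76 and 7.42 at the high dose, a difference of -2.30 ± 0.35 (adjusted p = 0.000319). UGT76C2, which inactivates cytokinins, read 7.63, 8.25 and 8.22 against 5.77, 5.97 and 6.41 (-1.98 ± 0.47, adjusted p = 0.00498), while its clean air values were 6.78, 6.12 and 4.65. For UGT76C2 the high plants lay within the range of clean air and the low plants above it.

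AT2G04050 and AT2G04070, neighbouring multidrug efflux carriers of the MATE family on the detoxification list, rose. AT2G04050 read 2.11, 2.13 and 2.13 against 9.75, 10.07 and 9.98, at least 61.1-fold higher (adjusted p = 9.69e-11), and AT2G04070 read 3.95, 4.06 and 4.07 against 9.74, 11.17 and 10.79, a difference of 6.54 ± 0.31 (adjusted p = 6.61e-08). Cross-binding between this pair was likewise not tested. Of 5 tau class glutathione transferases, 1 (20%) rose, 3 (60%) fell and 1 did not pass, where 21.1% and 28.7% of all probe sets rose and fell. GSTU25 read 2.11 in all low plants and 7.44, 9.89 and 9.16 in the high plants, at least 28.5-fold higher, and at least 46.1-fold without high plant 1 (adjusted p = 1.39e-06). GSTU20 read 11.15, 11.84 and 12.17 against 9.25, 10.60 and 10.46 (-1.62 ± 0.39, adjusted p = 0.00534), and GSTU27 fell by 1.56 ± 0.21 on the log2 scale (adjusted p = 0.000162). GSTU18 differed by -0.85 ± 0.28 (adjusted p = 0.0242), with overlapping groups; without high plant 1 the difference was -0.49 (adjusted p = 0.0645), and without low plant 2 or 3 the adjusted p was 0.0755 or 0.0735. GSTU16 differed by 0.05 (adjusted p = 0.891). GSTU22, GSTU23 and GSTU26 were not tested.

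Of 13 cytochrome P450 genes tested, the oxygenases of secondary metabolism, 1 (7.69%) rose, 4 (30.8%) fell and 8 did not pass, with falls near the 28.7% over all probe sets. CYP71B28 read 8.95, 8.80 and 8.85 at the low dose and 6.93, 7.49 and 7.46 at the high dose, a difference of -1.57 ± 0.16 (adjusted p = 2.97e-05). CYP71B29 fell by 1.25 ± 0.31 on the log2 scale (adjusted p = 0.0067), and CYP84A4 rose by 0.89 ± 0.22 (adjusted p = 0.00656). CYP71B35 fell by 0.78 ± 0.25 (adjusted p = 0.0219), a call lost without low plant 2, low plant 3 or high plant 1 (adjusted p = 0.0625, 0.0584 and 0.08). Without any of these 3 plants 2 falls were called in the family.

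All 6 tested genes of the mitochondrial stress list (14 genes, 8 named) rose, where 21.1% of all probe sets did. Their median was 7.61, or 6.71 with values under 4 raised to 4, and 3 of them were above 4 on no low array. AT5G51440, AT2G41730, AT2G21640 and AT2G04050 of this list are described above. AT2G32020, a GNAT-family acetyltransferase, read 2.11, 2.11 and 2.40 in the low plants and 9.23, 10.03 and 10.22 in the high plants, at least 56.7-fold higher (adjusted p = 2.24e-09). NDB2, an external NAD(P)H dehydrogenase that bypasses complex I, was expressed at both doses and read 6.47, 7.11 and 7.57 against 9.56, 10.90 and 10.70, a difference of 3.34 ± 0.44 (adjusted p = 0.000131). High plants did not overlap low plants in either gene. NDB4 and AT5G09570 were not tested. Of 4 antioxidant enzymes 1 (25%) rose, 1 (25%) fell and 2 did not pass, near the 21.1% and 28.7% over all probe sets. The monodehydroascorbate reductase ATMDAR2 rose by 0.83 ± 0.19 (adjusted p = 0.00426). It differed from clean air by -1.09 at the low dose (adjusted p = 0.00414) and by -0.26 at the high dose (adjusted p = 0.281). The glutathione reductase GR fell by 0.72 ± 0.20 on the log2 scale (adjusted p = 0.0121), a call lost with spike-in scaling (adjusted p = 0.0556).

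Rapid stress regulators were higher at the high dose, but they varied between clean air plants as well. Of 28 genes 9 were named and 8 tested: 7 (87.5%) rose, against 21.1% of all probe sets, none fell and 1 did not pass (median 2.91). CML38 and CML37, calmodulin-like calcium sensors known from wounding, had the largest differences. CML38 read 7.24, 5.33 and 6.55 at the low dose and 12.90, 13.20 and 13.81 at the high dose, a difference of 6.93 ± 1.38 (adjusted p = 0.00179). In clean air CML38 read 5.74, 7.19 and 11.93, so a clean air plant came within about 1 log2 unit of the high plants. CML37 read 2.14, 2.14 and 2.77 against 7.65, 10.14 and 10.69, at least 45.0-fold higher (adjusted p = 0.00206), at least 85.3-fold without high plant 1 and at least 29.7-fold without high plant 3. Its clean air values were 2.16, 2.16 and 8.10, the same plant standing apart.

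WRKY6, a transcription factor of senescence and phosphate signalling, was more even, with 6.01, 6.03 and 6.52 against 8.77, 9.68 and 9.04, a difference of 2.98 ± 0.33 (adjusted p = 4.24e-05). STZ, a zinc-finger repressor of stress responses, rose by 2.83 ± 0.58 (adjusted p = 0.00203), and the U-box ubiquitin ligases PUB24 and PUB22 by 1.58 ± 0.26 (adjusted p = 0.000504) and 2.08 ± 0.64 (adjusted p = 0.0197). The PUB22 call was lost with no filter and without low plant 1 or 2 or high plant 2 or 3 (adjusted p between 0.0539 and 0.0846). PUB23 read 6.05, 5.33 and 7.38 against 9.06, 10.39 and 10.56 (3.75 ± 1.22, adjusted p = 0.0245). The doses did not overlap in PUB23, yet the call was lost under the same settings (adjusted p between 0.0594 and 0.0848), which left 5 rises in the list.

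Calmodulin-like and WRKY families were not uniform. Of 6 calmodulin-like genes 4 (66.7%) rose, against 21.1% of all probe sets, none fell and 2 did not pass. CML23 rose by 2.30 ± 0.34 (adjusted p = 0.000291). CML41 read 3.40, 3.19 and 3.28 against 3.56, 7.02 and 7.02 (adjusted p = 0.0461), with high plant 1 not above background; it was at least 4.04-fold higher, at least 8.13-fold without high plant 1, and its call was lost in 12 of the 22 alternative settings in which it was tested (highest adjusted p = 0.161, without high plant 2). Of 5 WRKY factors 1 (20%) rose, 2 (40%) fell and 2 did not pass, where 21.1% and 28.7% of all probe sets rose and fell. WRKY47 fell by 1.65 ± 0.29 on the log2 scale (adjusted p = 0.000825) and WRKY20 by 0.87 ± 0.15 (adjusted p = 0.000699). Rises in the family numbered 2 with the 6 arrays alone and without clean air plant 3, and 3 with array weights. WRKY53 differed by 0.93 (adjusted p = 0.194).

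**Figure D3:**
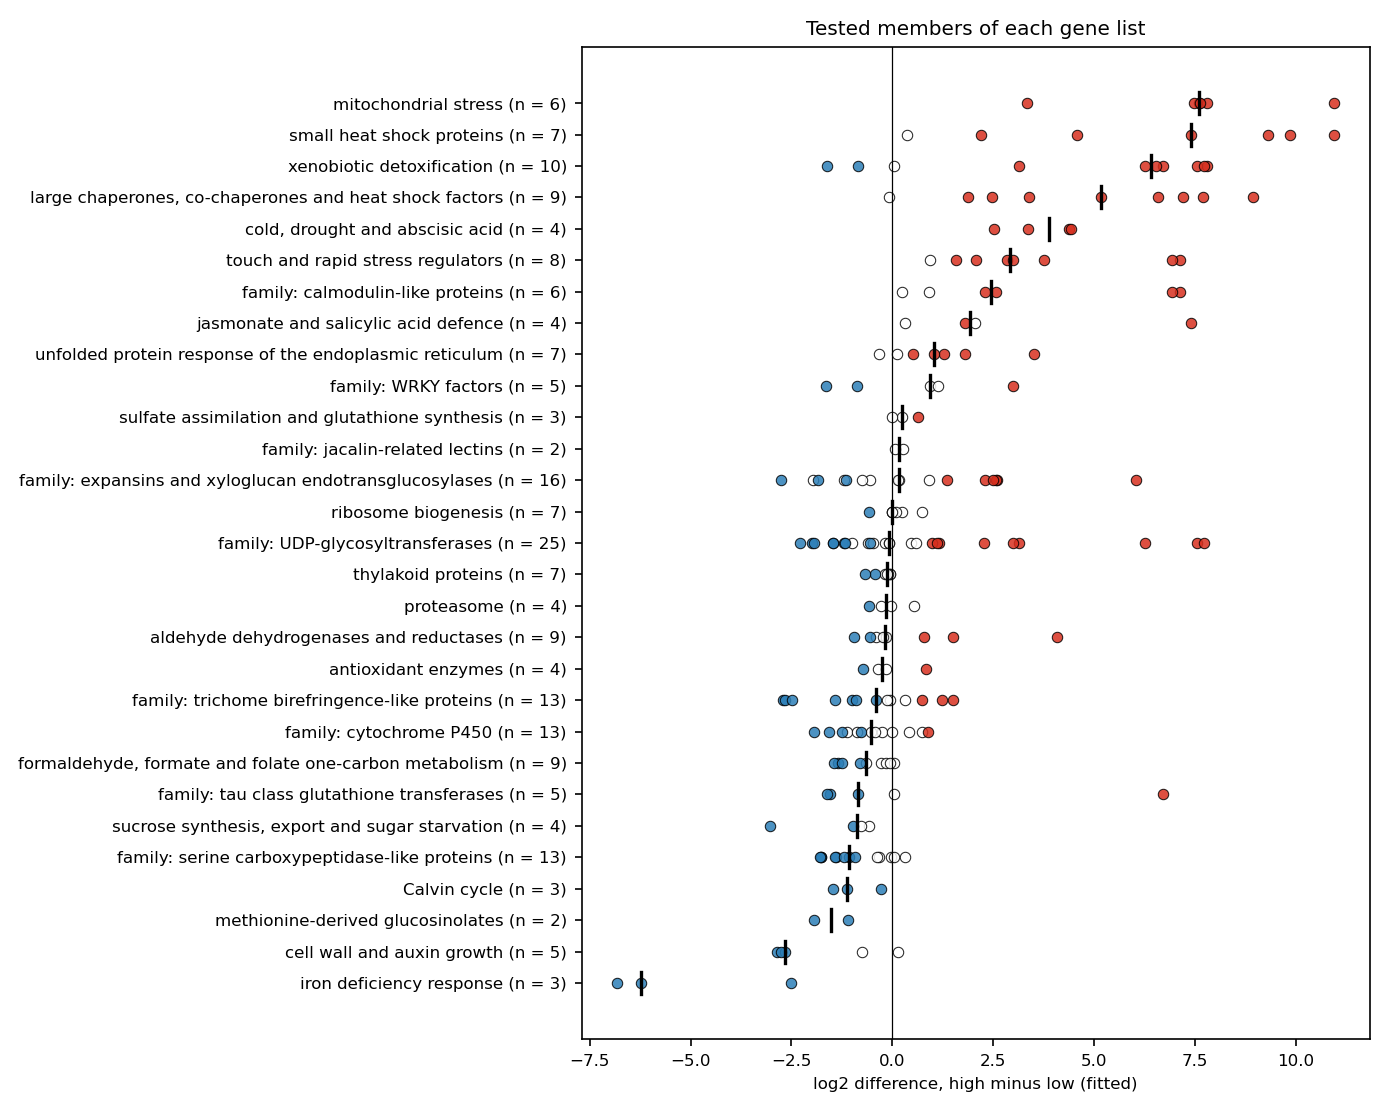
Fitted log2 difference between the high and the low dose (horizontal axis) of every tested probe set in each gene list with at least 2 tested (vertical axis, ordered by median; n, probe sets tested). Red and blue points passed an adjusted p of 0.05 as higher or lower, white points did not, and black bars are list medians, which run from 7.61 for mitochondrial stress to -6.22 for iron deficiency.

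Single-carbon metabolism is the route by which formaldehyde can be used. Of its 35 listed genes 9 had a named probe set and all 9 were tested. Of these 4 (44.4%) fell, none rose and 5 did not pass (median -0.66). Over all probe sets 28.7% fell and 21.1% rose, so with 9 genes the absence of rises says little about the route. The falls were in the glycine decarboxylase complex, which releases a single-carbon unit to tetrahydrofolate in photorespiration, and in the enzymes that release formate from formyl tetrahydrofolate. AT1G32470, the H-protein of the complex, read 13.12, 13.43 and 13.80 in the low plants and 11.89, 12.08 and 12.04 in the high plants, a difference of -1.44 ± 0.22 (adjusted p = 0.000309). AT1G11860, its T-protein, read 12.78, 13.19 and 13.58 against 11.68, 11.97 and 12.15 (-1.25 ± 0.25, adjusted p = 0.00174). The formyl tetrahydrofolate deformylase AT5G47435 read 10.82, 11.13 and 10.89 against 9.65, 9.54 and 9.65 (-1.34 ± 0.14, adjusted p = 3.56e-05). Low and high plants did not overlap in these 3 genes. The second deformylase, AT4G17360, fell by 0.81 ± 0.28 on the log2 scale (adjusted p = 0.0317), a call lost without low plant 1, low plant 3 or high plant 2 (adjusted p = 0.104, 0.0516 and 0.124).

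FDH, formate dehydrogenase, which oxidises formate to carbon dioxide, read 12.53, 12.27 and 10.80 at the low dose, 11.50, 11.84 and 11.78 at the high dose and 12.65 on average in clean air. The doses overlapped, and the difference of -0.16 had a 95% confidence interval of -1.11 to 0.79 (adjusted p = 0.784). The folate interconversion gene AT3G12290 differed by 0.05 (95% confidence interval -0.25 to 0.35, adjusted p = 0.797) and 5-FCL, which recycles a stored folate, by -0.27 (-0.68 to 0.14, adjusted p = 0.255).

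Of 9 aldehyde dehydrogenases and reductases 3 (33.3%) rose, 2 (22.2%) fell and 4 did not pass (median -0.18). These shares were not far from the 21.1% and 28.7% over all probe sets. AER, a reductase of reactive 2-alkenals from oxidised lipids, stood out with 8.25, 8.54 and 8.69 in the low plants and 12.83, 12.47 and 12.39 in the high plants, a difference of 4.08 ± 0.19 (adjusted p = 5.72e-08), while clean air averaged 8.07. ALDH7B4, a stress-induced aldehyde dehydrogenase, read 8.92, 9.38 and 7.86 against 10.16, 10.30 and 10.22 (1.51 ± 0.44, adjusted p = 0.0151). It averaged 10.08 in clean air, so the high plants were near clean air and the low plants below it, and the call was lost without low plant 3 (1.08, adjusted p = 0.0593). ALDH6B2 rose by 0.78 ± 0.22 (adjusted p = 0.0114), and ALDH3F1 and ALDH10A8 fell by 0.96 ± 0.17 (adjusted p = 0.00106) and 0.55 ± 0.17 (adjusted p = 0.0182) on the log2 scale. The ALDH10A8 call was lost without low plant 1 or 2 or high plant 1 or 2 (adjusted p between 0.0504 and 0.077).

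All 3 tested Calvin cycle genes (of 18) fell at the high dose, where 28.7% of all probe sets did. SBPASE, sedoheptulose bisphosphatase, read 13.34, 13.51 and 14.10 in the low plants and 12.01, 12.19 and 12.36 in the high plants, a difference of -1.46 ± 0.22 (adjusted p = 0.000339). PRK, phosphoribulokinase, read 13.55, 13.49 and 14.12 against 12.31, 12.60 and 12.89 (-1.12 ± 0.18, adjusted p = 0.00049). No high plant reached a low plant in either gene. RCA, Rubisco activase, near the top of the range, fell by 0.27 ± 0.08 on the log2 scale (adjusted p = 0.0199), a call lost in 7 alternative settings, among them without low plant 3 or high plant 1 (adjusted p = 0.0561 and 0.068). Of 7 thylakoid proteins 2 (28.6%) fell, none rose and 5 did not pass (median -0.14), a share of falls near the 28.7% over all probe sets. ATPC1, the gamma subunit of the chloroplast ATP synthase, fell by 0.67 ± 0.08 (adjusted p = 0.000104) and PSBY, a small photosystem II protein, by 0.44 ± 0.10 (adjusted p = 0.00474, but 0.0534 with spike-in scaling). LHCB4.1, a light-harvesting protein, differed by -0.06 (95% confidence interval -0.29 to 0.17) and PSAN, of photosystem I, by -0.07 (-0.35 to 0.22).

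In sucrose metabolism 2 of 4 tested genes (50%) fell, against 28.7% of all probe sets, and none rose. ATSPS4F, a sucrose phosphate synthase, read 7.87, 8.47 and 10.95 in the low plants and 4.67, 6.72 and 6.79 in the high plants, with 10.34 on average in clean air (-3.04 ± 0.86, adjusted p = 0.013). Low plant 3 stood at the clean air level and the other low plants below it, and without high plant 1 the call was lost (-2.34, adjusted p = 0.0536). SWEET11, a sucrose exporter of phloem loading, fell by 0.96 ± 0.23 on the log2 scale (adjusted p = 0.00458). Its relative SWEET13 read 3.33, 3.97 and 4.19 at the low dose, 3.40, 2.94 and 2.86 at the high dose and 7.62, 7.62 and 9.21 in clean air. SWEET13 was thus near or below background at both doses (-0.77, 95% confidence interval -2.64 to 1.11, adjusted p = 0.48) and well read in clean air.

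Among sulfur genes, 1 of 3 tested for sulfate assimilation (33.3%) rose, against 21.1% of all probe sets, and the other 2 did not pass. The ATP sulfurylase APS4 rose by 0.65 ± 0.19 (adjusted p = 0.0143). Without low plant 2 or 3 the adjusted p was 0.0516 or 0.052. APS4 differed from clean air by -0.98 at the low dose (adjusted p = 0.00584) and by -0.33 at the high dose (adjusted p = 0.164). Both tested genes of methionine-derived glucosinolates, the sulfur-rich defence compounds of the cabbage family, fell, as did 28.7% of all probe sets. AT2G31790, a glucosyltransferase of this pathway, read 8.10, 8.56 and 9.94 against 6.54, 6.93 and 7.30, with 9.90, 9.82 and 9.91 in clean air (-1.94 ± 0.37, adjusted p = 0.00143). BCAT4, which starts the elongation of methionine, read 9.34, 9.99 and 10.64 against 8.31, 9.06 and 9.28, with 12.03 on average in clean air (-1.11 ± 0.38, adjusted p = 0.0322). The group means of both genes fell in order from clean air to low to high, and the step between doses in BCAT4 was lost without low plant 2 or 3 or high plant 1 or 2 (adjusted p between 0.0545 and 0.124).

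Iron deficiency genes had the lowest median of the lists described. Of 27 genes 5 were named and 3 tested, and all 3 fell (median -6.22), where 28.7% of all probe sets did. Of these, 2 fell to values not above background on any high array. AT1G47400, an IRON MAN peptide that signals low iron, read 7.93, 8.94 and 12.92 in the low plants and 2.67, 3.60 and 3.06 in the high plants, against 8.15, 7.81 and 9.75 in clean air. It was at least 60.9-fold lower at the high dose (adjusted p = 0.000386), at least 21.6-fold without low plant 3 and at least 122-fold without low plant 1. AT5G05250, a protein of unassigned function known to rise under iron deficiency, read 8.69, 8.86 and 10.81 against 2.85, 3.93 and 2.91, at least 43.7-fold lower (adjusted p = 3.65e-05), and at least 27.3-fold without low plant 3. PYE, a transcription factor of the iron deficiency response, read 7.78, 7.64 and 9.58 against 5.51, 5.84 and 6.09 (-2.52 ± 0.49, adjusted p = 0.0016).

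In all 3 iron genes low plant 3 was the highest of the 12 plants, and the high plants were the lowest group by mean, with no overlap with the low plants. BHLH101, another factor of the iron response, was not tested: it read 2.12, 2.16 and 6.93 in the low plants and between 2.11 and 2.12 in the high plants, so only low plant 3 among these 6 was above background.

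All 4 tested genes of the cold and drought list (of 24) rose from the low to the high dose, where 21.1% of all probe sets did. Their median was 3.87. Their clean air plants varied widely, and clean air plant 1 lay among the low plants in COR15B and COR47. COR15A, a chloroplast protein that protects membranes in freezing, read 10.42, 9.85 and 9.55 at the low dose, 13.23, 12.70 and 13.97 at the high dose and 11.66, 14.21 and 13.80 in clean air. Its high plants were 3.36 ± 0.77 above the low plants (adjusted p = 0.00406) and within the range of clean air, and its low plants were 3.28 below clean air (adjusted p = 0.0127). COR15B, its close relative, read 9.12, 8.36 and 6.05 against 12.24, 11.79 and 12.75 (4.42 ± 0.94, adjusted p = 0.00271), with 8.91, 12.03 and 11.05 in clean air. LTI30, a dehydrin, read 4.83, 5.30 and 5.46 against 9.57, 9.21 and 9.98, with 6.42, 7.74 and 7.91 in clean air (4.39 ± 0.83, adjusted p = 0.00129). For LTI30 the high plants lay above every clean air plant as well. The dehydrin COR47 rose by 2.52 ± 0.56 (adjusted p = 0.00347).

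**Figure D4:**
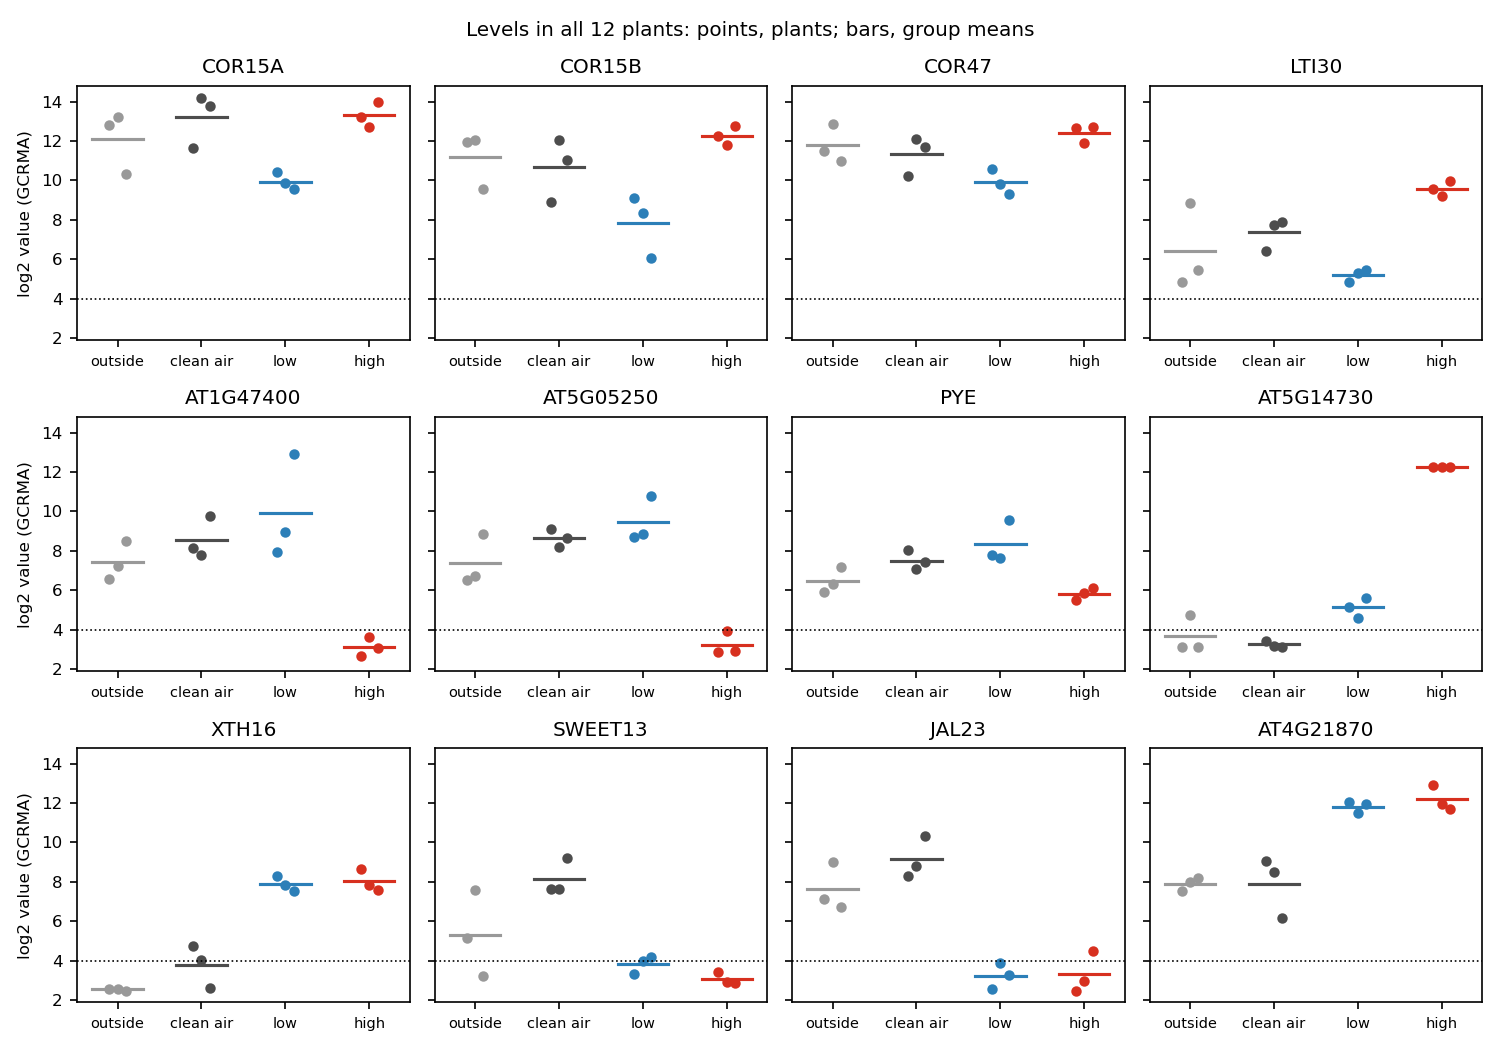
Log2 expression values (vertical axes) of 12 genes in all 12 plants, by group, with bars at group means and a dotted line at 4. Cold genes (top row) are lowest at the low dose; the iron genes AT1G47400, AT5G05250 and PYE are lowest at the high dose with low plant 3 highest; XTH16, SWEET13, JAL23 and AT4G21870, picked after their values were seen, differ from clean air at both doses with overlapping dose groups.

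Several genes differed from clean air at both doses by similar amounts. XTH16, a xyloglucan endotransglucosylase that remodels cell walls, read 4.76, 4.05 and 2.59 in clean air, 8.32, 7.84 and 7.52 at the low dose and 8.67, 7.85 and 7.59 at the high dose. The doses overlapped, with a difference of 0.15 (95% confidence interval -0.89 to 1.18, adjusted p = 0.82). JAL23, a jacalin-related lectin, read 8.30, 8.81 and 10.31 in clean air, 2.58, 3.89 and 3.27 at the low dose and 2.48, 2.96 and 4.49 at the high dose, a difference of 0.07 (95% confidence interval -1.51 to 1.64, adjusted p = 0.948). JAL34, the other tested lectin, differed by 0.25 (adjusted p = 0.65). These intervals leave room for a dose difference of over 1 log2 unit in XTH16 and JAL23.

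Ribosome biogenesis genes mostly did not pass. Of 7 tested none rose, 1 (14.3%) fell and 6 did not pass, with a median of 0.00. Rises and falls made up 21.1% and 28.7% over all probe sets. AT3G22660 (0.74, adjusted p = 0.0798) was called higher with the 6 arrays alone, with array weights and without outside plant 2 or 3. AT2G40360 and AT5G14520, assembly factors of the large ribosomal subunit, differed by -0.00 (95% confidence interval -0.50 to 0.50) and 0.00 (-0.50 to 0.51). AT2G40360 read 9.06, 8.60 and 8.59 in clean air, 9.57, 9.99 and 9.82 at the low dose and 10.18, 9.79 and 9.41 at the high dose, so both doses were above clean air. AT3G05060, a NOP58-like nucleolar protein, fell by 0.58 ± 0.18 on the log2 scale (adjusted p = 0.0201), a call lost with spike-in scaling (adjusted p = 0.0679) and without low plant 2 or 3 or high plant 3 (adjusted p = 0.0717, 0.0577 and 0.0821). Its clean air mean was 7.51, below the means of both doses. The only tested DNA repair gene of 20, AT1G48360, differed by -0.39 (adjusted p = 0.147), and the clock gene GI by 1.79 (adjusted p = 0.0842; 0.0351 without low plant 1).

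Cell wall and growth genes went both ways. Of 5 tested on the growth list 3 (60%) fell, against 28.7% of all probe sets, none rose and 2 did not pass. EXPA8, an expansin that loosens walls, read 11.29, 11.53 and 10.92 in the low plants and 7.61, 8.66 and 9.23 in the high plants, a difference of -2.75 ± 0.37 (adjusted p = 0.000149). IAA29, an auxin response repressor, read 7.61, 7.39 and 4.48 against 4.21, 3.22 and 3.43 (-2.87 ± 0.94, adjusted p = 0.0251). Low plant 3 lay near the high plants, and the call was lost without low plant 1 or 2 or high plant 2 or 3 (adjusted p between 0.0674 and 0.0921). TBL26 read 5.26, 5.49 and 8.03 against 3.30, 3.96 and 3.55, with 9.58 on average in clean air; it was at least 4.79-fold lower (adjusted p = 0.0075), and at least 2.60-fold without low plant 3.

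Of 16 expansins and xyloglucan endotransglucosylases 6 (37.5%) rose, 3 (18.8%) fell and 7 did not pass (median 0.15). The shares over all probe sets were 21.1% and 28.7%. XTH18 read 6.35, 4.81 and 6.17 at the low dose and 11.54, 11.50 and 12.38 at the high dose, with 4.29 on average in clean air (6.03 ± 0.96, adjusted p = 0.000452). EXPA16 rose by 2.59 ± 0.30 (adjusted p = 6.47e-05) and the expansin-like EXLA1 by 2.57 ± 0.55 (adjusted p = 0.00263). EXPA8 and EXPA16 belong to a single expansin family and moved in opposite directions.

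Of 13 trichome birefringence-like proteins, acetyltransferases of wall polysaccharides, 3 (23.1%) rose, 7 (53.8%) fell and 3 did not pass. Rises were near the 21.1% over all probe sets, and 28.7% of all fell. Over the alternative settings the family had 2 to 3 rises and 5 to 7 falls, with the calls of TBL16, TBL28, TBL45 and TBL38 each lost in some. TBL25 read 10.64, 10.62 and 10.39 against 8.07, 8.03 and 8.08 (-2.49 ± 0.16, adjusted p = 8.78e-07), TBL36 fell by 2.71 ± 0.60 on the log2 scale (adjusted p = 0.00339), and TBL37 rose by 1.51 ± 0.13 (adjusted p = 8.55e-06). Of 13 serine carboxypeptidase-like proteins 8 (61.5%) fell, against 28.7% of all probe sets, none rose, against 21.1%, and 5 did not pass. Their median was -1.07. The largest differences among them were -1.78 ± 0.19 in scpl50 (adjusted p = 3.52e-05), -1.77 ± 0.26 in scpl46 (adjusted p = 0.000262), -1.76 ± 0.23 in SCPL45 (adjusted p = 0.000127) and -1.43 ± 0.31 in scpl48 (adjusted p = 0.00277).

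Of 4 tested defence genes 2 (50%) rose, against 21.1% of all probe sets, none fell and 2 did not pass. GRX480, a glutaredoxin known from salicylic acid and detoxification signalling, read 2.82, 2.60 and 4.31 in the low plants and 9.27, 11.33 and 11.36 in the high plants, a difference of 7.40 ± 0.91 (adjusted p = 8.88e-05). SAG101, a partner of the immune regulator EDS1, read 7.29, 6.38 and 6.65 against 8.30, 8.59 and 8.86 (1.81 ± 0.25, adjusted p = 0.000167). High and low plants did not overlap in either gene. The defensin PDF1.2 read 4.43, 5.74 and 4.37 against 4.04, 6.67 and 9.99 (adjusted p = 0.181), so the high plants differed more among themselves than from the low plants. Without high plant 1 it was called higher (3.48, adjusted p = 0.0177).

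The labelled tissue was checked against leaf markers. RCA and PRK, of leaf mesophyll, read above 12 on all low and high arrays, and PYK10, a root marker, sat at 2.11 on all of them. Few markers of other leaf cell types had a named probe set: 1 of 5 for trichomes, 1 of 5 for guard cells, 1 of 9 for vascular tissue, 1 of 4 for dividing cells and none of 3 for epidermis. TRY, of trichome patterning, read 4.67, 5.19 and 6.57 in the low plants and 2.71, 3.18 and 3.20 in the high plants, at least 2.78-fold lower (adjusted p = 0.00372). AUR1, a mitotic kinase, read 4.53, 4.97 and 4.49 against 3.60, 3.66 and 3.35, at least 1.58-fold lower (adjusted p = 0.00429). Its clean air mean was 3.34, from which the high dose differed by 0.19 (adjusted p = 0.568) and the low dose by 1.32 (adjusted p = 0.00658). The guard cell gene FMA differed by 0.12 (adjusted p = 0.702). Whether the makeup of the leaf samples had a part in the other results was not tested.

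Of 69 probe sets for genes of the plastid genome, transcribed inside chloroplasts, 67 were tested, and 14 (20.9%) rose, 12 (17.9%) fell and 41 did not pass. Over all probe sets 21.1% rose and 28.7% fell, so the share of rises was near the background, and the median of -0.11 was that of all probe sets tested. rbcL, the large subunit of Rubisco, read 7.43, 8.36 and 8.61 in the low plants and 10.54, 10.73 and 11.43 in the high plants, with 9.25 on average in clean air (2.77 ± 0.34, adjusted p = 9.33e-05). petL, of the cytochrome b6f complex, rose by 1.57 ± 0.37 (adjusted p = 0.00473) and accD, of fatty acid synthesis, by 1.29 ± 0.35 (adjusted p = 0.0101). psaA, a core protein of photosystem I, read 12.96, 12.94 and 13.27 against 10.73, 11.36 and 12.32 (-1.59 ± 0.31, adjusted p = 0.00169). The high plants of psaA spread over more than 1 log2 unit, with high plant 1 the lowest. Its partner psaB differed by -0.01.

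ndhH, of the chloroplast NADH dehydrogenase-like complex, read 7.06, 8.53 and 8.54 against 4.64, 6.25 and 7.32 (-1.97 ± 0.63, adjusted p = 0.0227). The doses overlapped, since low plant 1 read below high plant 3; without high plant 1 the difference was -1.26 (adjusted p = 0.0821), and without low plant 2 or 3 the adjusted p was 0.0804 or 0.0749. The polymerase subunit rpoB fell by 1.45 ± 0.41 on the log2 scale (adjusted p = 0.0123) and the photosystem II protein psbB by 0.91 ± 0.21 (adjusted p = 0.00426), while psbA, the D1 protein, rose by 0.49 ± 0.17 (adjusted p = 0.0314), a call lost with no filter, with the 6 arrays alone and without low plant 2 or 3 or high plant 1 (highest adjusted p = 0.111). Without low plant 3 the falls in the plastid genome numbered 7 and the rises 13. High plant 1, the lowest in ndhH and psaA, is the plant with the largest 3′ minus 5′ control signal (1.83), and its part in these values was not tested.

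**Figure D5:**
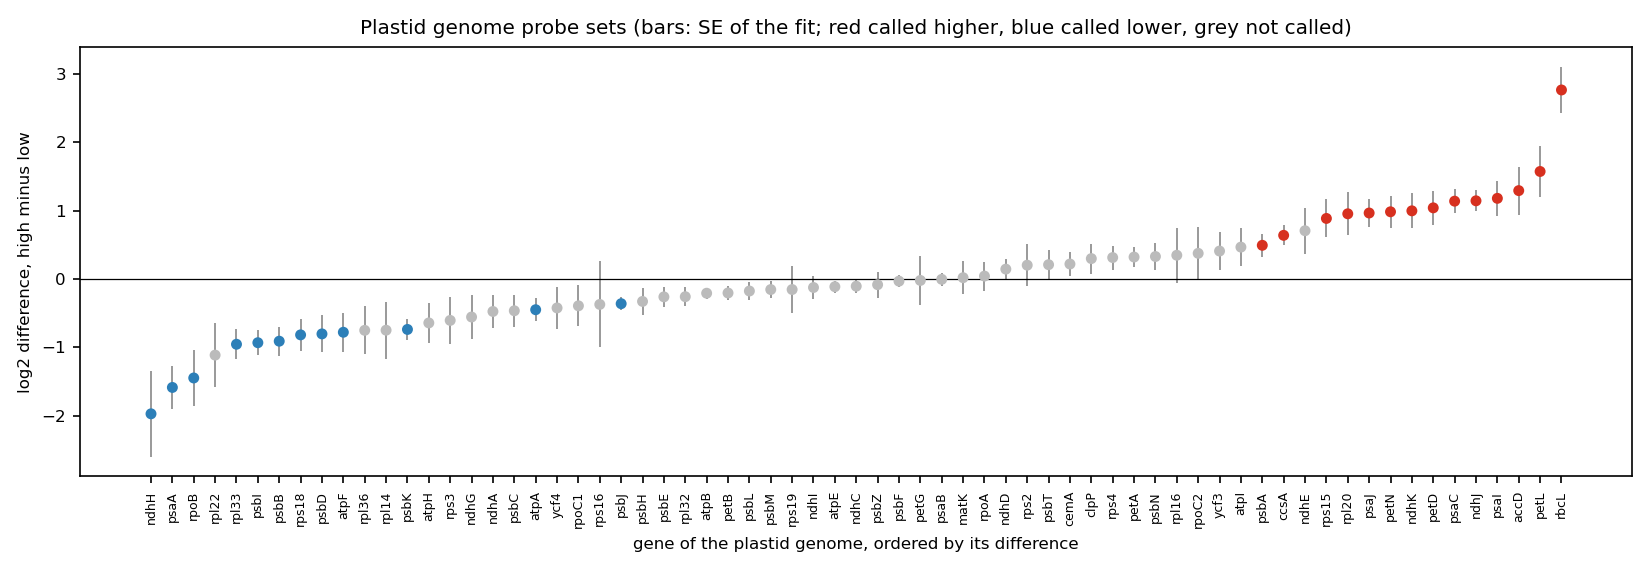
Log2 difference between the high and the low dose (vertical axis, bars: SE of the fit) of the 67 tested plastid genome probe sets, ordered by size along the horizontal axis. Red points (14) were called higher, blue points (12) lower and grey points (41) neither; rbcL at 2.77 and ndhH at -1.97 are the ends of the range.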

How the data were processed

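The authors deposited log2 expression values per probe set, background-corrected and normalised with GCRMA per the submitters' processing notes, with options and version not given in the sources used here. That the scale is log2 was read off the span of the numbers. In limma 3.58.1 (R 4.3.3), lmFit and eBayes with a mean-variance trend were applied to the 4 groups of 3 arrays together, and high minus low was taken as a contrast. Control probe sets (64) were dropped, and probe sets above 4 on at least 3 of the 12 arrays were tested (13874 of 22746). A call is a Benjamini-Hochberg adjusted p under 0.05 over all tested probe sets, and confidence intervals are 95% intervals of the fit. The fit was tested on simulated data. The number of arrays limits the precision.

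Of 14016 probe sets in the platform's gene table, 13513 name a single gene, 503 name several and were left unnamed, and 13436 were matched to a current locus in RefSeq's TAIR10.1 gene table. The 39 gene lists hold 570 loci, of which 137 have a named probe set, and families found by symbol. The rule for named genes took the 12 largest rises and falls whose groups do not overlap, ranked with values under 4 raised to 4. It added up to 4 called members per list. Further list members are described in the text that this rule did not pick, such as Fes1A, Hop2, PUB22 and psbA. The comparison and the lists were chosen with earlier results of these data known. Alternatives were other filters, a floor at 4, quantile and spike-in scaling, the 6 arrays alone, other moderation, array weights, a replicate block and leaving out each array.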

Additional observations from a re-analysis of the deposited data

How the results depend on the processing

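Under 23 alternative settings the number of calls ran from 5712 (without high plant 2) to 8711 (array weights) around 6910, and rises and falls stayed within 1.5 times their main counts in each. Leaving out each array in turn gave 5712 to 7052 calls, 2419 to 2990 of them rises and 3270 to 4062 falls. Scaling to the spike-in controls gave 5944 calls, no filter 6423, the floor at 4 6784 and the 6 arrays alone 6494. That scaling used bioB, bioD and cre and left out bioC, so it does not address the bioC difference between the doses. Rises of at least 4 on the log2 scale numbered 169 under the floor, against 7 falls, and 261 with array weights, against 20, where the reported fit gave 207 and 12. The replicate numbers share only a label: deviations of same-numbered low and high plants correlated at 0.19, -0.19 and 0.15, and with the replicate block 6810 probe sets were called, 2886 higher and 3924 lower. Of 103 genes named by the rule 98 were called. Of these, 82 were called under each setting in which they were tested (80 in all 23 settings, and AUR1 and CYP84A4 in 22), 16 lost the call in at least 1, and none of the called genes reversed; the cause of the losses was not tested. Of the 5 genes not called, AT1G48360 was called with array weights (adjusted p = 0.0256) and GI without low plant 1. These counts, and the settings named next, cover the 103 genes only. Other genes described in the text, among them PUB22, psbA and ALDH10A8, also lost calls and are not counted here. The settings that ended calls without leaving out an array were no filter (AT4G17360, PUB23, RCA, BCAT4, IAA29, GSTU18, CML41 and ndhH), spike-in scaling (AT4G17360, GR, RCA, PSBY, AT3G05060, GSTU18 and CML41), the 6 arrays alone (RCA, GSTU18 and ndhH), quantile normalization and no mean-variance trend (RCA), and the floor and the replicate block (CML41). In the plastid genome 7 falls were called with spike-in scaling and 20 with array weights, against 12. Raising values to 4 moved TRY to -1.48 and AUR1 to -0.66, and quantile normalization moved RCA to -0.14 (adjusted p = 0.227). Signal near the array's lowest value limits many folds to bounds.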
